A study of Rattus norvegicus with 12 samples.

Results

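The genes described here encode proteins that sit on or hold the synaptic vesicle: the synaptotagmins Syt1, Syt2, Syt4 and Syt7, the synapsins Syn1, Syn2 and Syn3, and the membrane proteins synaptophysin (Syp), Sv2a and Sv2b. They were chosen by gene name, all 10 names matched 1 row each of the 22431 genes in the deposited table, and all 10 passed the filter on low values that left 14170 genes for testing. The values come from poly(A) RNA of the prefrontal cortex of 12 wild-type rat offspring in early adolescence. The control group (4 libraries, titled saline) carried the treatment label control, the PNO group (4 libraries) the label postnatal oxycodone, and the IUO group (4 libraries) the label in utero oxycodone. Oxycodone is an opioid agonist. The protocol, shared by all samples, gives 15 mg/kg by oral gavage either before or after pregnancy, up to postnatal day 21, and leaves the dosing days of the groups unstated. For each condition 2 dams gave 2 animals each. Which animals were littermates is not labelled, so they were treated as independent, which can make p-values too small. The labels used here name no strain, sex or exact age.

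A nerve terminal stores transmitter in vesicles, and a rise in calcium makes some of them fuse with the cell membrane. Synaptotagmins carry a pair of C2 domains through which several of them sense that calcium. Synapsins are phosphoproteins that cluster vesicles into a reserve, and synaptophysin and the SV2 glycoproteins span the vesicle membrane. In cortex these genes are expressed chiefly by neurons, so in bulk tissue a lower value can mean fewer neurons or less RNA per neuron, which cannot be told apart here.

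None of the 10 genes passed the threshold in any comparison, an adjusted p under 0.05 by edgeR's quasi-likelihood test over all 14170 genes. In each comparison 0 of the 14170 tested genes passed it, so this result is not particular to the 10. The spread between libraries differed by gene. Across groups, Syt1 ranged 5.04-fold over the 12 libraries and Syt2 5.69-fold, while Sv2b ranged 1.37-fold and Syn1 1.40-fold. In PNO, Syn2 was higher in all 4 libraries than in all 4 controls, as were 5.17% of all tested genes. Its fold change was 1.19, and the 95% interval of its log2 difference ran from 0.02 to 0.48 before adjustment. In IUO, Syt2 had a mean 2.30-fold above control, with the highest values in IUO 1 and IUO 2. Both also had raised markers of striatum and of oligodendrocytes.

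Total counts lay between 49227533 and 60672246 per library, and the 10 genes together took 0.374% to 0.445% of them. The lowest count of any of them was 179 (Syt2) and the lowest outside Syt2 was 1021 (Syt7). The defining markers of cortex were present in every library: Slc17a7 lay between 1340 and 2435 CPM (the usual counts-per-million scale, over tested genes and with TMM factors) and Tbr1 between 107 and 153 CPM. The mean log2 CPM of 8 general neuronal markers was similar across groups, at 7.92 to 8.19 in control, 7.95 to 8.23 in PNO and 7.92 to 8.20 in IUO. Of 13 listed striatal genes 12 were tested, and their mean was over 0.5 above the median library in control 2, PNO 2, IUO 1 and IUO 2. Of 9 listed olfactory bulb genes 8 were tested, and their mean was raised in the same sense in PNO 1, PNO 3, PNO 4 and IUO 3. The summed level of the tested striatal genes was 555 to 981 CPM in control, 575 to 2820 CPM in PNO and 595 to 2185 CPM in IUO, and that of the tested bulb genes 31.7 to 39.9, 32.5 to 213 and 23.3 to 258 CPM. Within those lists only Isl1 (1 library) and Barhl2 (2 libraries) were at 0 in any library. IUO 4 stood furthest from its group, with Pearson's r of 0.954 to 0.969 across genes to the other IUO libraries.

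The promoter windows of Syt1, Syt2, Syn1 and Syp are shown because Syt1 and Syt2 varied most, Syn1 is the classical neuron-specific promoter of the set, and Syp ran opposite to Syt1 across libraries. Each runs from 250 bases before to 50 bases after the gene's start, 5′ to 3′ on the gene's strand, from RefSeq on GRCr8, and 8 of the 10 genes had an entry of 300 bases. Their places are chr7:46244164-46244463 on the minus strand, chr13:48736872-48737171 on the plus strand, chrX:3725495-3725794 on the plus strand and chrX:17536400-17536699 on the minus strand. Capitals mark matches, on either strand, to the cyclic AMP response element TGACGTCA or its core TGACG, the GC box GGGCGG, the Egr site GCGNGGGCG or the TATA box TATAAA, which can overlap each other.
Syt1: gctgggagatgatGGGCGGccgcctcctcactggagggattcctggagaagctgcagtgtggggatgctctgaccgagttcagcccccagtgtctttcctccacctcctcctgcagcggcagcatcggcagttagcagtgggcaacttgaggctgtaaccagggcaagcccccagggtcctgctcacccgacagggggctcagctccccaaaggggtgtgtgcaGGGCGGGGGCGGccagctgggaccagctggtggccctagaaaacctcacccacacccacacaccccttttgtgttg
Syt2: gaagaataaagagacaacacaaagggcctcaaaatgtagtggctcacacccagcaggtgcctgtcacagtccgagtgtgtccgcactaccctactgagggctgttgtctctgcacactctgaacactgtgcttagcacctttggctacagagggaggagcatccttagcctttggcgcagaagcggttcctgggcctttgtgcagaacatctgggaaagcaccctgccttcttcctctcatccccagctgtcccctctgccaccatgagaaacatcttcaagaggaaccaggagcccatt
Syn1: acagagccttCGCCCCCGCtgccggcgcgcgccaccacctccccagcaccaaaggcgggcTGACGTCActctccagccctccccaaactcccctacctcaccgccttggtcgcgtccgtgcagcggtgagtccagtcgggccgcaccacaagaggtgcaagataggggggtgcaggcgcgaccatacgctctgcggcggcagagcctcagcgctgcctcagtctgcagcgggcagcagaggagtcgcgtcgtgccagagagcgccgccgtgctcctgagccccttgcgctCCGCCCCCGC
Syp: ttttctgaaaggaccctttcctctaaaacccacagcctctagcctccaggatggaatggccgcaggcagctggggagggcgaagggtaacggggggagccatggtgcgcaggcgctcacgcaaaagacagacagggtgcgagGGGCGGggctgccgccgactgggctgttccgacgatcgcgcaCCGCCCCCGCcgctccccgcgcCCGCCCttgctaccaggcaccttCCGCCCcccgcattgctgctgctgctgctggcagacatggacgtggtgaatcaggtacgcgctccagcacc

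The full cyclic AMP response element was found in 1 of the 8 windows, that of Syn1, and in 1.91% of 27457 promoter windows of this length. GC boxes were found in 4 of the 8 (Syt1, Syn1, Syn2 and Syp) and in 34.9% of all windows. The Egr site was found in the same 4 genes and in 5.29% of all windows, and it can share letters with the GC box. Both motifs consist mostly of G and C, and these 4 windows were the richest in G and C of the 8. Shares over windows of like G and C content were not computed. The core TGACG stood in Syn1 and Syt4, against 22% of all windows, and the TATA box in 0 of the 8, against 14.3%. The G and C content was 71% for Syn1, 67% for Syp, 64.3% for Syt1 and 54% for Syt2, beside a median of 52.3% over all windows. The Syt2 window held 4 CpG pairs and the Syn1 window 31. These matches describe letters in a window and are not evidence of binding. Each window rests on RefSeq's annotated start, and whether that start is used in cortex was not tested. The Syt2 window may therefore not be the promoter in use.

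Levels of different genes were compared per length, in FPKM, over the 4 control libraries. Syp was the most abundant, at 822 ± 57.0 FPKM (SD, n = 4), higher than 99.8% of tested genes by its mean over the 12 libraries. Syn1 followed at 267 ± 35.0 FPKM and Sv2a at 89.1 ± 14.4 FPKM, and the control libraries of these 3 genes did not overlap. Sv2b at 49.8 ± 2.55 FPKM and Syn2 at 47.5 ± 4.55 FPKM overlapped and could not be ordered. Of the calcium sensors Syt1 was highest at 29.3 ± 6.39 FPKM, but its lowest control library overlapped Syt7 at 17.5 ± 4.79 FPKM, and Syt7 overlapped Syt4 at 13.4 ± 2.41 FPKM. Syn3 (2.81 ± 0.199 FPKM) and Syt2 (1.37 ± 0.275 FPKM) lay lowest and apart from each other and the rest. Syt1 therefore exceeded Syt2 by 14.4 to 31.5 times per length in control libraries, and Syp exceeded Syn1 by 2.80 to 3.29 times.

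**Figure D1:**
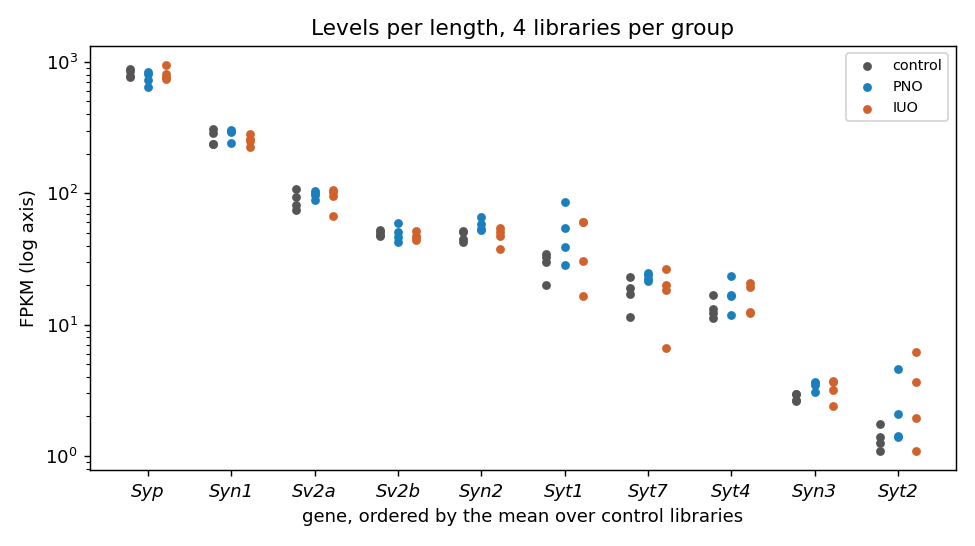
FPKM of each gene (log axis) in the 4 libraries of each group, with genes ordered by their mean over the control libraries. Syp is leftmost with a control mean of 822 FPKM and Syt2 rightmost with 1.37 FPKM, and the exposed libraries of Syt1 and Syt2 spread wider than those of Syn1 or Sv2b.

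Syt1 is the calcium sensor for fast, synchronous release in most forebrain neurons. The table places it on chromosome 7 from 43815785 to 44357803, minus strand, as a protein-coding gene with 1 transcript. It measured 70.2, 61.1, 68.9 and 43.0 CPM in control 1 to 4. In the PNO libraries it measured 172, 112, 58.8 and 80.2 CPM, and in the IUO libraries 123, 124, 62.3 and 34.1 CPM. PNO 1, PNO 2, IUO 1 and IUO 2 were therefore higher than every other library, and IUO 4 was the lowest of all. The means were 60.8 ± 12.5 CPM in control, 106 ± 49.3 CPM in PNO and 85.8 ± 45.0 CPM in IUO (SD, n = 4 each). The log2 fold change was 0.80 in PNO (SE 0.38, 95% interval -0.03 to 1.63, edgeR adjusted p = 0.465) and 0.50 in IUO (SE 0.38, interval -0.33 to 1.32, adjusted p = 0.998). Of the 4 PNO libraries 3 exceeded the highest control, and the PNO log2 fold change was 0.45 without PNO 1 and 0.28 with the mean striatal and bulb marker levels as covariates (adjusted p = 1). The IUO value was 0.27 without IUO 1, 0.27 without IUO 2 and 0.76 without IUO 4. Without the 4 libraries raised in striatal markers the IUO value turned to -0.33, from IUO 3 and IUO 4 against 3 controls, and the PNO value was 0.77. Over the 12 libraries Pearson's r between the log2 CPM of Syt1 and the marker means was 0.71 for neurons and -0.63 for microglia. For striatum it was 0.51 and for bulb 0.09. Of the 4 high libraries PNO 2, IUO 1 and IUO 2 had raised striatal and oligodendrocyte markers and PNO 1 raised bulb markers. Control 2, also raised in striatal and oligodendrocyte markers, was not high. The part of these markers in the Syt1 values was not tested.

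Syt2 is a fast calcium sensor close in sequence to Syt1, which prevails in hindbrain and spinal cord and in fast-spiking parvalbumin interneurons of the forebrain. It lies on chromosome 13 from 46185282 to 46193859, plus strand. Its control libraries measured 3.00, 3.44, 4.95 and 4.02 CPM. PNO 2 reached 12.6 CPM, while PNO 1, 3 and 4 measured 3.78, 3.94 and 5.77 CPM. IUO 1 and IUO 2 reached 9.96 and 17.0 CPM, and IUO 3 and 4 measured 3.00 and 5.43 CPM. Only those 3 libraries exceeded 5.77 CPM, and IUO 3 lay within the control range, so the groups overlapped. The means were 3.85 ± 0.843 CPM in control, 6.53 ± 4.17 CPM in PNO and 8.86 ± 6.17 CPM in IUO. The log2 fold change in IUO was 1.20 (SE 0.49, 95% interval 0.15 to 2.25, unadjusted p = 0.0282, edgeR adjusted p = 0.998), and in PNO 0.76 (SE 0.48, interval -0.28 to 1.81, adjusted p = 0.579). In the IUO comparison 4.02% of all tested genes had an unadjusted p under 0.05, and Syt2 was the 1 gene of the 10 that did.

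Syt2 was high in libraries with high striatal markers. Pearson's r between its log2 CPM and the mean of the 12 striatal genes was 0.84 over the 12 libraries, where both measures share a dissection and a depth. It was 0.72 with 6 oligodendrocyte markers and 0.52 with the 3 tested of 5 listed parvalbumin-neuron markers (Kcnc1, Cox6a2 and Lhx6). Pvalb itself and Erbb4 were not among the tested genes. The part of striatal cells, oligodendrocytes and parvalbumin neurons in the Syt2 values was not tested. Control 2 departed from the striatal pattern, with a raised striatal mean of 5.25 and Syt2 at 3.44 CPM. Without the 4 libraries raised in striatal markers the log2 fold change of Syt2 was 0.08 in IUO and 0.17 in PNO, both below its SE. Those 4 libraries were also the ones raised in oligodendrocyte markers, so leaving them out cannot tell striatal from oligodendrocyte markers. Without PNO 2 alone the PNO value was 0.22. With the striatal and bulb means as covariates it was 0.87 in IUO (adjusted p = 0.709) and 0.88 in PNO (adjusted p = 1). Without the libraries raised in bulb markers, which leaves PNO 2 alone in its group with its spread assumed to be that of the other groups, the PNO value was 1.70. Without IUO 2 alone the IUO value was 0.67.

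Syt7 binds calcium with high affinity and serves asynchronous release and facilitation. The table gives it on chromosome 1 from 207031592 to 207089026, plus strand, with 9 transcripts in 1 row. It measured 47.0, 31.4, 65.7 and 54.9 CPM in control, 58.1, 67.0, 62.5 and 69.3 CPM in PNO, and 73.2, 56.3, 51.2 and 18.8 CPM in IUO. The PNO libraries lay close together, at the upper end of the control range or above it, and IUO 4 lay below every other library. The means were 49.7 ± 14.5, 64.2 ± 4.98 and 49.9 ± 22.8 CPM. The log2 fold change was 0.37 in PNO (SE 0.31, 95% interval -0.30 to 1.04, edgeR adjusted p = 0.665), and 0.20 without control 2. In IUO it was 0.00 (SE 0.31, interval -0.67 to 0.67, adjusted p = 0.999), and it became 0.28 without IUO 4. The IUO sign also turned without any 1 of control 1, control 2, PNO 1, IUO 1, IUO 2 or IUO 3, down to -0.24. In the table Lrrc10b, on the opposite strand, spans all of Syt7 and measured 3.97 to 31.6 CPM.

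Syt4 is a synaptotagmin of dense-core vesicles whose first C2 domain binds calcium poorly, and its transcription responds to neuronal activity. The table places it on chromosome 18 from 23038378 to 23046332, minus strand, with 2 transcripts. The control libraries measured 36.2, 26.6, 29.6 and 25.4 CPM. PNO libraries measured 49.6, 36.6, 25.9 and 36.1 CPM, and IUO libraries 44.8, 42.4, 26.7 and 27.7 CPM. PNO 1, IUO 1 and IUO 2 were the 3 highest, as they were for Syt1, and each group overlapped the control range. The means were 29.5 ± 4.84, 37.0 ± 9.70 and 35.4 ± 9.55 CPM, with a log2 fold change of 0.33 in PNO (SE 0.21, edgeR adjusted p = 0.58) and 0.26 in IUO (SE 0.21, adjusted p = 0.998). The PNO value was 0.15 without PNO 1, and the IUO value 0.13 without IUO 1 and 0.17 without IUO 2. Without the 4 libraries raised in striatal markers the IUO value was -0.16.

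**Figure D2:**
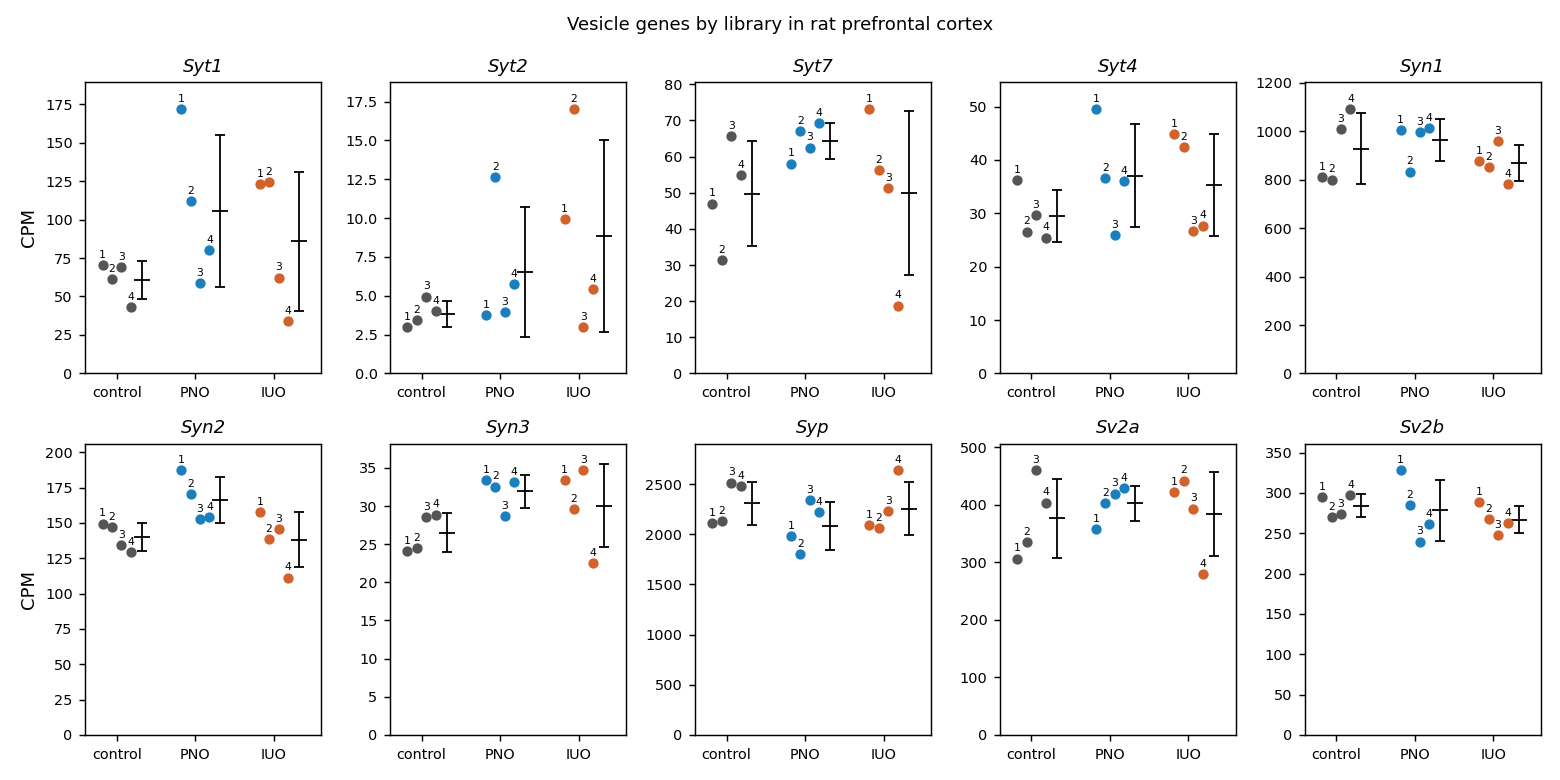
CPM of each gene in every library by group (points, numbered by replicate), with the mean and SD of the 4 libraries to the right of each group; axes start at 0. Syt1 is highest in PNO 1 (172 CPM), Syt2 in IUO 2 (17.0 CPM), Syt7 is lowest in IUO 4 (18.8 CPM), and the 4 PNO libraries of Syn2 lie above the 4 controls.

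Among the synapsins, Syn2 was the gene whose PNO libraries stood apart from the controls. Syn2, which tethers the vesicle reserve alongside Syn1, lies on chromosome 4 from 148186270 to 148344192, plus strand. It measured 149.5, 147, 134 and 129 CPM in control, 187, 171, 153 and 154 CPM in PNO, and 157, 138, 145 and 111 CPM in IUO. All 4 PNO libraries exceeded all 4 controls, the lowest PNO library by 153 against 149.5 CPM, as did 5.17% of all tested genes. IUO overlapped both groups. The means were 140 ± 9.85, 166 ± 16.3 and 138 ± 19.5 CPM. The log2 fold change was 0.25 in PNO (SE 0.11, 95% interval 0.02 to 0.48, unadjusted p = 0.0379, edgeR adjusted p = 0.437) and -0.02 in IUO (SE 0.11, interval -0.25 to 0.21, adjusted p = 0.998). In PNO 11.0% of all tested genes had an unadjusted p under 0.05, and Syn2 was the 1 gene of the 10 among them. With the striatal and bulb means as covariates the PNO value was 0.01 (adjusted p = 1). Bulb markers were raised in PNO 1, PNO 3 and PNO 4 and in no control, so that fit cannot fully separate them from the group. In the direct comparison of IUO with PNO, Syn2 differed by -0.27 (SE 0.11, interval -0.50 to -0.03, unadjusted p = 0.0275, adjusted p = 0.714), where 6.73% of all tested genes had an unadjusted p under 0.05. IUO 4 gave the lowest Syn2 value of the 12, and without it the difference was -0.18.

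Syn3, the synapsin best known from developing neurons, lies on chromosome 7 from 17376372 to 17808790, plus strand. Its libraries measured 24.1, 24.5, 28.5 and 28.9 CPM in control. It measured 33.4, 32.6, 28.7 and 33.1 CPM in PNO and 33.4, 29.6, 34.7 and 22.5 CPM in IUO. In PNO and in IUO 3 of 4 libraries exceeded the highest control, and PNO 3 lay just under it, at 28.7 against 28.9 CPM. The means were 26.5 ± 2.55, 31.9 ± 2.18 and 30.1 ± 5.48 CPM, with a log2 fold change of 0.27 in PNO (SE 0.13, 95% interval -0.01 to 0.55, edgeR adjusted p = 0.464) and 0.18 in IUO (SE 0.13, interval -0.10 to 0.46, adjusted p = 0.998). Syn3 has the longest transcript of the set, 9298 bases as implied by its counts and FPKM, and with each library's trend on gene length removed the PNO value was 0.15. The IUO value was 0.11 without IUO 3 and 0.30 without IUO 4.

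Syn1, the most abundant synapsin, lies on chromosome X from 1172208 to 1227396, plus strand. Its libraries measured 811, 800.5, 1009 and 1093 CPM in control. In PNO it measured 1006, 834, 998 and 1014 CPM and in IUO 878, 853, 961 and 781 CPM. No exposed library exceeded the highest control, and only IUO 4 lay below the lowest. The means were 928 ± 146, 963 ± 86.4 and 868 ± 74.2 CPM. The log2 fold change was 0.05 in PNO (95% interval -0.20 to 0.30, edgeR adjusted p = 0.889) and -0.10 in IUO (interval -0.34 to 0.15, adjusted p = 0.998). The PNO sign turned with the tissue covariates (-0.08). Without the libraries raised in bulb markers the value was -0.17, but that fit holds 1 PNO library, PNO 2, the one with the lowest Syn1 of its group, and so restates its value.

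Each synapsin gene contains a gene for a tissue inhibitor of metalloproteinases on its opposite strand, and the coordinates in the table show all 3 nested pairs. Timp1 lies inside Syn1 at a median of 3.77 CPM, Timp4 inside Syn2 at 9.76 CPM and Timp3 inside Syn3 at 16.0 CPM. The libraries were made with a stranded kit, but whether the counting used strand is not given in the sources used here, so these values could hold reads of the partner. Timp3 is the nearest in level to its host, Syn3, which measured 22.5 to 34.7 CPM. None of the Timp genes passed in PNO, with log2 fold changes of 0.07 for Timp1 (edgeR adjusted p = 0.953), 0.10 for Timp3 (adjusted p = 0.845) and 0.02 for Timp4 (adjusted p = 0.978).

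Among the membrane proteins Syp, the tetraspan protein used as a general marker of terminals, was the gene with a negative log2 fold change in PNO of more than its SE. Syp lies on chromosome X from 14849444 to 14864745, minus strand. It measured 2111, 2128, 2514 and 2477 CPM in control, 1978, 1800.3, 2337 and 2222 CPM in PNO, and 2093, 2062, 2228 and 2638 CPM in IUO. PNO 1 and PNO 2 lay below all controls, as did IUO 1 and IUO 2, and IUO 4 was the highest of the 12. The means were 2307 ± 217, 2084 ± 241 and 2255 ± 265 CPM, with a log2 fold change of -0.15 in PNO (SE 0.11, 95% interval -0.39 to 0.09, edgeR adjusted p = 0.632) and -0.03 in IUO (SE 0.11, interval -0.27 to 0.21, adjusted p = 0.998). The 4 libraries lowest in Syp were the 4 highest in Syt1.

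Sv2a, the binding site of the antiseizure drug levetiracetam, lies on chromosome 2 from 183741547 to 183756927, plus strand. Its libraries measured 307, 336, 460.2 and 404 CPM in control. It measured 358, 403, 419 and 429 CPM in PNO and 423, 442, 393 and 279.8 CPM in IUO. All PNO libraries lay inside the control range, and IUO 4 lay below it. The means were 377 ± 69.1, 402 ± 31.3 and 384 ± 72.6 CPM, with a log2 fold change of 0.10 in PNO (95% interval -0.23 to 0.42, edgeR unadjusted p = 0.533) and 0.03 in IUO (interval -0.29 to 0.35, adjusted p = 0.998).

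Sv2b, its paralog in excitatory forebrain neurons, was the steadiest of the set: only 12.8% of tested genes had a smaller SD of log2 CPM over the 12 libraries. It lies on chromosome 1 from 128978473 to 129152479, minus strand. It measured 295, 270.5, 274 and 297 CPM in control, 328, 285, 239.6 and 262 CPM in PNO, and 289, 267, 248 and 263 CPM in IUO. In IUO 3 of the 4 libraries lay below the lowest control. The means were 284 ± 14.0, 279 ± 37.9 and 267 ± 16.9 CPM, with a log2 fold change of -0.03 in PNO (95% interval -0.23 to 0.18, edgeR adjusted p = 0.935) and -0.09 in IUO (interval -0.30 to 0.11, adjusted p = 0.998).

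Read as a set, the 10 genes had 8 positive and 2 negative log2 fold changes in PNO, with a median of 0.26, beside 51.2% positive and a median of 0.01 over all tested genes. In IUO 6 were positive and 4 negative, with a median of 0.02, beside 56.4% positive and a median of 0.02 over all genes. In the direct comparison of IUO with PNO 8 were negative and 2 positive, with a median of -0.08, beside 50.8% positive and a median of 0.00. There the 9 genes other than Syn2 ran from -0.36 (Syt7) to 0.44 (Syt2), with edgeR adjusted p from 0.743 to 0.946. Single libraries moved some of these. Syt7 was -0.09 without IUO 4 and Syt2 was 0.98 without PNO 2 and -0.09 without IUO 2. The PNO and IUO values share the control libraries. At an unadjusted p under 0.05, 1 of the 10 was higher in PNO and 0 lower, beside 6.82% and 4.22% of all genes. In IUO 1 was higher and 0 lower, beside 2.31% and 1.71%, and between IUO and PNO 0 were higher and 1 lower, beside 3.67% and 3.06%. Groups that did not overlap were found for 1 gene above and 0 below control in PNO, beside 5.17% and 4.66% of all genes. In IUO they were found for 0 genes in either direction, beside 1.15% and 1.03%, and between IUO and PNO also for 0, beside 1.85% and 1.78%. In each of the 3 comparisons 0 of the 10 genes and 0% of all tested genes passed the adjusted threshold by edgeR, with 1564, 570 and 953 genes at an unadjusted p under 0.05 and 117, 11 and 8 genes past the adjusted threshold by DESeq2, and the smallest adjusted p among the 10 was 0.437 in PNO, 0.998 in IUO and 0.714 between them. Of the 10 genes 0 passed in the other fits run, DESeq2 and limma included. With the striatal and bulb means as covariates, 6 of the 10 PNO values changed sign (those of Syt7, Syn1, Syn3, Syp, Sv2a and Sv2b). In that fit 0 of the 14170 tested genes passed the adjusted threshold, with 541 at an unadjusted p under 0.05. Bulb markers were raised in PNO 1, PNO 3 and PNO 4 and in no control, so the fit cannot fully separate them from the group.

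**Figure D3:**
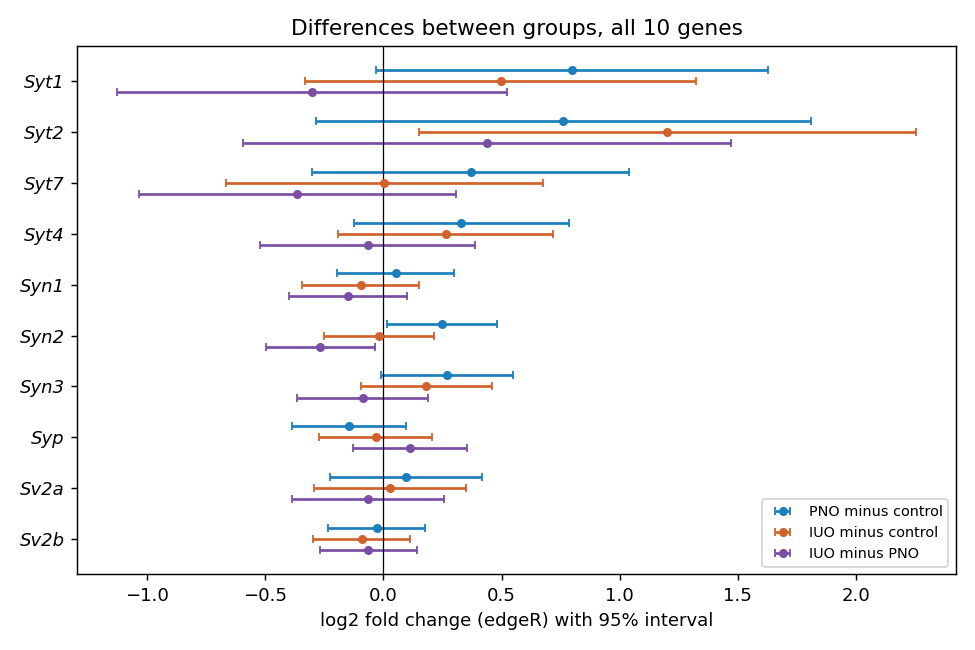
Log2 fold change of each gene with its 95% interval (edgeR, unadjusted) for PNO minus control, IUO minus control and IUO minus PNO. The intervals exclude 0 for Syn2 in PNO, Syt2 in IUO and Syn2 between the exposed groups, and for no other of the 30 values; those of Syt1, Syt2 and Syt7 are the widest.

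The 10 genes did not vary as a block across the 12 libraries. Syt1 and Syt4 went together most closely (Pearson's r of log2 CPM 0.90), followed by Syt7 with Sv2a (0.84), Syt1 with Syn2 (0.81) and Syt7 with Syn3 (0.78). Syp ran opposite to Syn2 (-0.82), Syt1 (-0.81) and Syt4 (-0.66). Without IUO 4 the first pair stood at 0.94 and Syp with Syt1 at -0.73, whereas Syt7 with Syn2 moved from 0.62 to 0.21. Per length, Syp exceeded Syt1 by 8.53 times in PNO 1, 11.9 in PNO 2, 12.6 in IUO 1 and 12.3 in IUO 2. The ratio lay between 20.5 and 42.7 in the other PNO libraries, IUO 3 and the controls, and was 57.3 in IUO 4. These are descriptions over libraries that share depth and dissection.

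IUO 4 held the lowest value of 6 of the 10 genes (Syt1, Syt7, Syn1, Syn2, Syn3 and Sv2a) and the highest of Syp. It also held the lowest value of 2841 and the highest of 3058 of the 14170 tested genes, more than any other library. PNO 1 held the highest value of 4 (Syt1, Syt4, Syn2 and Sv2b), beside 8.01% of all tested genes. Each library's deviations from the mean also followed gene length across genes. Spearman's rho was 0.02, -0.28, -0.11 and -0.21 in control 1 to 4. It was 0.26, 0.31, -0.09 and 0.18 in PNO 1 to 4, and 0.25, 0.21, -0.16 and -0.35 in IUO 1 to 4. PNO 1, PNO 2, IUO 1 and IUO 2, the libraries highest in Syt1 and lowest in Syp, thus had the highest rho. IUO 4, lowest in Syt1 and highest in Syp, had the lowest rho. The part of this trend in the values above was not tested beyond the fit that removes it, in which Syt1 stood at 0.87 and Syn2 at 0.25 in PNO and Syt2 at 1.21 in IUO.

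**Figure D4:**
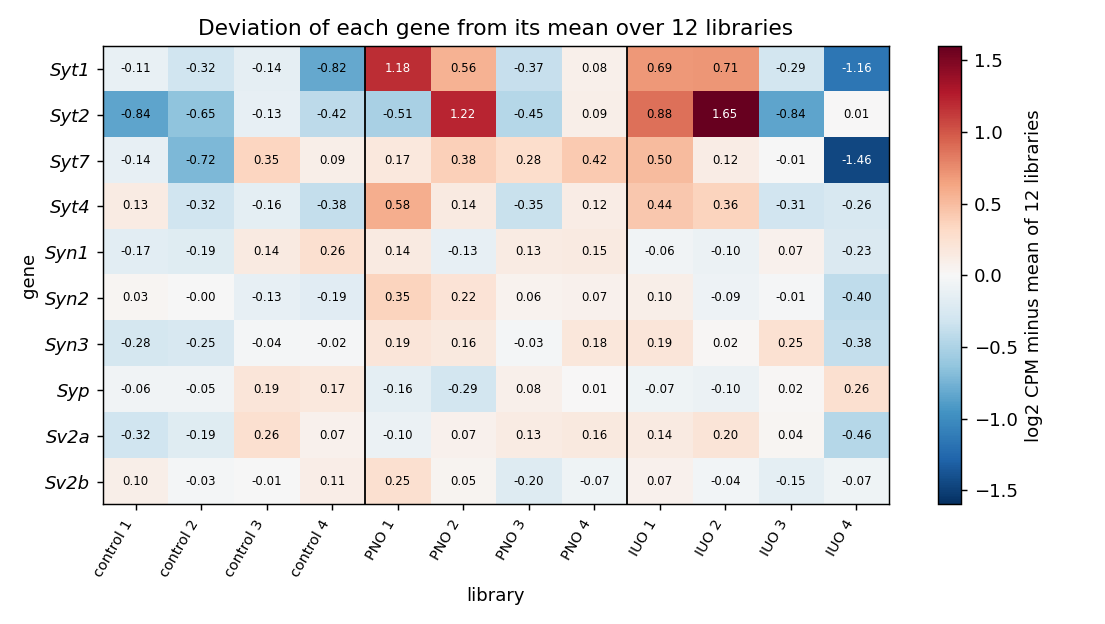
Log2 CPM of each gene in each library minus that gene's mean over the 12 libraries, with groups divided by black lines. The darkest cells are Syt2 in IUO 2 (1.65) and PNO 2 (1.22), Syt1 in PNO 1 (1.18) and IUO 4 (-1.16), and Syt7 in IUO 4 (-1.46).

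Tested genes outside the set with the most similar pattern over the 12 libraries were found by Pearson's r of log2 CPM. Syt1 was followed most closely by Cntn1, which encodes the axonal adhesion molecule contactin (r = 0.99). Syt2 was closest to Usp30 (0.92) and Foxp1 (0.91), a transcription factor gene abundant in striatum. Syt4 was closest to the JNK kinase gene Mapk9 (0.96), Syt7 to Prex1 (0.98) and Syn2 to Tmem255a (0.96). Sv2a was closest to Dagla (0.98), which encodes the enzyme that makes the endocannabinoid 2-arachidonoylglycerol. Syn1 was closest to Septin3 (0.93), Syn3 to RGD1304884 (0.94) and Sv2b to the sodium channel gene Scn2a (0.87). These genes were picked as the highest of all tested, so their values carry no test.

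**Figure D5:**
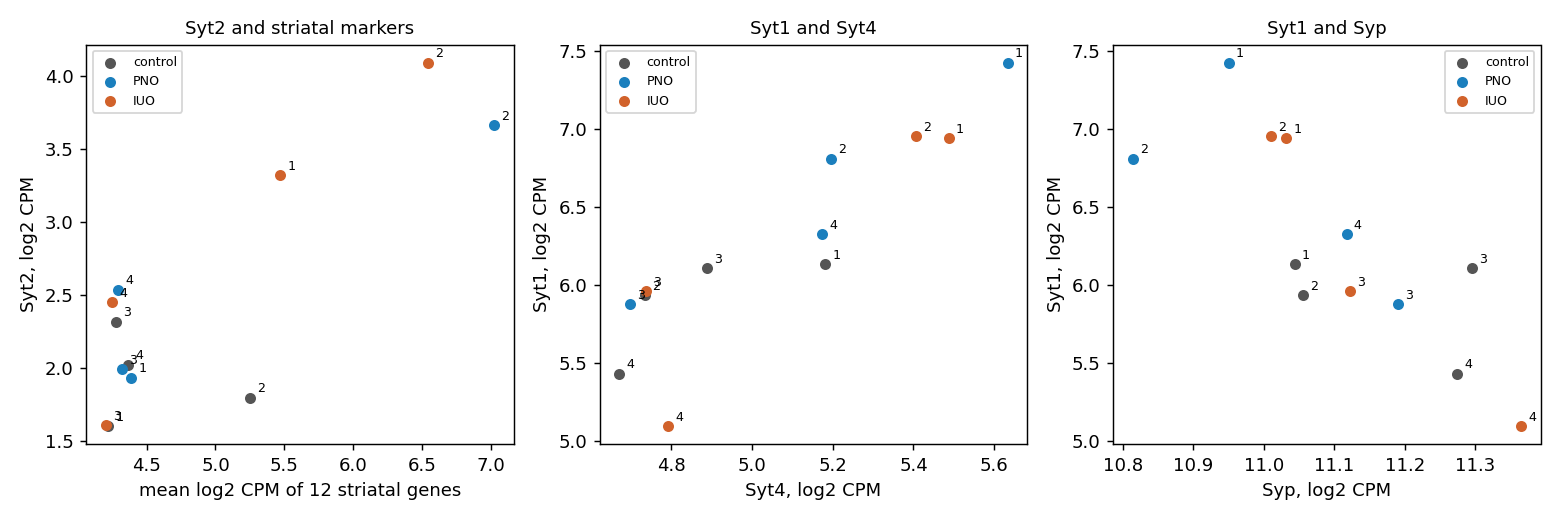
Log2 CPM per library, numbered by replicate: Syt2 against the mean log2 CPM of 12 striatal genes (left), Syt1 against Syt4 (middle) and Syt1 against Syp (right). Syt2 is highest in PNO 2, IUO 1 and IUO 2, where the striatal mean is raised, but not in control 2, and PNO 1, PNO 2, IUO 1 and IUO 2 are high in Syt1 and low in Syp.

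The rest of the vesicle machinery was taken from 3 lists. Of 13 other synaptotagmins 9 were tested, and log2 fold changes were positive for 7 of them in PNO (median 0.11) and 3 in IUO (median -0.03), with 0 past the adjusted threshold in either. Syt10, a sensor of peptide secretion that is abundant in olfactory bulb, had a PNO mean of 1.55 ± 0.400 CPM against 0.673 ± 0.190 CPM for the controls (log2 fold change 1.20, SE 0.34, edgeR adjusted p = 0.311), and its PNO libraries all exceeded its controls. It was the 1 gene of the 9 to do so, beside 5.17% of all tested genes. In IUO it measured 1.26 ± 0.478 CPM, a log2 fold change of 0.90 (adjusted p = 0.998). For Syt9 the PNO mean was 5.50 ± 0.634 CPM and the control mean 3.45 ± 1.55 CPM. For Syt12 they were 38.5 ± 5.51 and 31.9 ± 5.65 CPM. In IUO Syt17 measured 49.0 ± 8.22 CPM beside 57.2 ± 8.51 CPM in control, and Syt9 2.61 ± 1.16 CPM. The bulb markers were raised in 3 of the 4 PNO libraries, and their part in the Syt10 values was not tested.

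Of 21 other vesicle membrane proteins and transporters 19 were tested. Of these 8 were positive and 11 negative in PNO (median -0.05), and 6 positive and 13 negative in IUO (median -0.05), with 0 past the adjusted threshold. Synpr, which encodes synaptoporin, the close relative of synaptophysin, had means of 85.9 ± 10.6 CPM in the PNO libraries and 55.2 ± 10.1 CPM in the controls. Its log2 fold change was 0.64 (SE 0.23, edgeR adjusted p = 0.397), opposite in sign to that of Syp. Its 4 PNO libraries exceeded the controls, as did those of no other gene of the 19, a share near the 5.17% of all tested genes. The vesicular GABA transporter gene Slc32a1 had a log2 fold change of 0.67 in PNO (adjusted p = 0.399) and 0.38 in IUO (adjusted p = 0.998). In the same PNO comparison all 8 tested bulb markers had positive log2 fold changes (median 1.96), as had all 12 tested striatal markers (median 0.92), and their part in the Synpr and Slc32a1 values was not tested. The vesicular glutamate transporter gene Slc17a7 had a log2 fold change of -0.22 in IUO and Vamp1 0.20 (adjusted p = 0.998 for each), and Syngr2 had -0.25 in PNO (adjusted p = 0.465).

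Of 18 release partners 17 were tested, with 12 positive and 5 negative in PNO (median 0.13) and 9 positive and 8 negative in IUO (median 0.03), and 0 past the adjusted threshold. Bsn, which encodes the active zone scaffold bassoon, had means of 54.5 ± 13.8 CPM in the PNO libraries and 31.0 ± 9.05 CPM in the controls (log2 fold change 0.81, edgeR adjusted p = 0.406). Doc2b, a high-affinity calcium sensor with C2 domains like those of the synaptotagmins, measured 11.6 ± 3.53 CPM and 7.21 ± 0.598 CPM (0.69, adjusted p = 0.412). The priming factor gene Unc13a had a log2 fold change of 0.63 in PNO (adjusted p = 0.305) and 0.17 in IUO (adjusted p = 0.998). All 4 PNO libraries exceeded all 4 controls for 3 of the 17 genes, Doc2b, Unc13a and the complexin gene Cplx2, beside 5.17% of all tested genes. Cplx2, named after its values were seen, had a log2 fold change of 0.41 (edgeR adjusted p = 0.592). The part of the bulb and striatal markers in these values was not tested. In IUO Doc2a had a log2 fold change of -0.23 (adjusted p = 0.998).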

How the data were processed

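Per the labels' protocols, poly(A) RNA was made into TruSeq stranded libraries, and HISAT2 and StringTie are named in the submitters' processing notes. Their versions and settings and the genome build are not stated in the labels used here. The authors deposited 1 table with whole-number counts and FPKM per gene and library, per the file headers. Positions of genes come from that table and promoter sequences are RefSeq's on GRCr8. The 14170 genes whose FPKM averaged 0.5 or more were tested on the deposited counts with edgeR 4.0.16 (TMM factors, 1 quasi-likelihood fit of 3 groups, two-sided), adjusted by Benjamini-Hochberg over these genes with a threshold of 0.05. The script was tested on simulated data. Log2 CPM used a prior count of 2. DESeq2 1.42.0 and limma 3.58.1 (log2(FPKM + 0.5), pseudocounts of 0.1 and 1, and sample weights), other filters, factors and covariates, and leaving out libraries were alternatives. R 4.3.3, Python 3.11.15 and matplotlib 3.10.9 were used. All 10 members are named, with the 3 genes of smallest unadjusted p per vesicle list in each exposed group and the most similar genes. Some genes that these rules name are not reported here. Members, lists and tests were chosen with earlier results of these data known. Libraries of a group differed beyond counting noise (chi-square per degree of freedom at least 36.8), so none was counted as a repeat.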

Additional observations from a re-analysis of the deposited data

Results flagged for a closer look

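Each of the 10 genes was examined in each group of 4 libraries for a library far from the other 3, and 2 of these 30 groups held one; chance alone marks about 1 group in 20. Syn1 in PNO 2 measured 834 CPM, below 998 to 1014 CPM in the other PNO libraries. The striatal and the oligodendrocyte marker means were raised in PNO 2 alone among the PNO libraries. Syn3 in PNO 3 measured 28.7 CPM, below 32.6 to 33.4 CPM in the others. The gap to the nearest library was 0.915 and 0.839 of the group's whole range on the log2 scale.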

How the results depend on the processing

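Of the 10 genes 0 passed the adjusted threshold under any alternative. Over all genes the main edgeR fit called 0 in each comparison. Apart from DESeq2, limma and voom, the alternatives below were also edgeR fits. For PNO minus control DESeq2 called 117, voom with sample weights 32, a fit of only the compared groups 11, limma on FPKM 1 at each pseudocount (0.5, 0.1 and 1), and the fit without bulb-raised libraries 3. For IUO minus control DESeq2 called 11, and the fits without striatal-raised and without bulb-raised libraries called 4 and 1. For IUO minus PNO these called 8, 3 and 3. Leaving out 1 library gave 0 to 19 genes (19 without IUO 4, 1 without control 2) for PNO minus control, 0 to 1 for IUO minus control (1 without control 2 or IUO 2) and 0 to 1 for IUO minus PNO (1 without PNO 3 or IUO 2). The cause of these changes was not tested. Signs of log2 fold changes turned as follows. For PNO minus control with marker covariates, Syt7 gave -0.33, Syn1 gave -0.084, Syn3 gave -0.10, Syp gave 0.043, Sv2a gave -0.22, Sv2b gave 0.050. For PNO minus control with bulb-raised libraries left out, Syn1 gave -0.17. For IUO minus control, Syt7 gave -0.0052 with DESeq2, -0.076 with limma at a pseudocount of 0.5, -0.082 with limma at a pseudocount of 0.1, -0.069 with limma at a pseudocount of 1, -0.016 with no filter, -0.0032 with a minimum mean FPKM of 2, -0.0050 with median-of-ratios factors, -0.010 with only the compared groups, -0.038 with the replicate block, -0.50 with marker covariates, -0.67 with striatal-raised libraries left out, -0.025 with bulb-raised libraries left out. For IUO minus control with sample weights, Syn2 gave 0.073. For IUO minus control with marker covariates, Syn3 gave -0.039, Syp gave 0.10, Sv2a gave -0.17. For IUO minus control with striatal-raised libraries left out, Syt1 gave -0.33, Syt4 gave -0.16, Syp gave 0.040, Sv2a gave -0.21. For IUO minus PNO with sample weights, Syt1 gave 0.11, Syt4 gave 0.10, Sv2a gave 0.0042, Sv2b gave 0.0029. For IUO minus PNO with marker covariates, Syt2 gave -0.016, Syn3 gave 0.062, Sv2a gave 0.043. For IUO minus PNO with striatal-raised libraries left out, Syt2 gave -0.093. For IUO minus PNO with bulb-raised libraries left out, Syt2 gave -0.23, Syt4 gave 0.066, Syn1 gave 0.0067. Leaving out 1 library in turn, values that turned sign ranged as follows. For PNO minus control, Sv2b -0.12 to 0.026, Syn1 -0.012 to 0.13. For IUO minus control, Sv2a -0.057 to 0.16, Syn2 -0.087 to 0.072, Syp -0.12 to 0.011, Syt7 -0.24 to 0.28. For IUO minus PNO, Sv2a -0.14 to 0.060, Sv2b -0.12 to 0.018, Syn3 -0.15 to 0.029, Syt1 -0.53 to 0.029, Syt2 -0.091 to 0.98, Syt4 -0.20 to 0.10. The labels do not say that replicate numbers pair libraries, and the main fit did not pair them. Deviations of same-numbered libraries of different groups correlated at 0.0153 to 0.411 (4 of 12 pairs over 0.1). The highest were PNO 2 with IUO 2 (0.411) and PNO 3 with IUO 3 (0.238). Those of differently numbered libraries correlated at -0.302 to 0.203 (4 of 36 over 0.1). In both other groups 3 of 12 libraries went best with their own number. These values do not decide whether the numbers mark a shared batch. With the replicate block 0 genes and 0 of the 10 were called in each comparison, with 1780, 705 and 1144 genes at an unadjusted p under 0.05 and Syn2 in PNO at 0.25 (edgeR adjusted p = 0.307).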
